A study of Rattus norvegicus with 6 samples.

Results

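The data described here are the 3 control libraries of a rat islet RNA-sequencing experiment of 6 libraries, and they show the baseline transcriptome of cultured islet cells that received a control oligonucleotide. The 3 were chosen by their label, control gapmeR, and no measured value was used to choose them. The other 3 libraries, from cells given a gapmeR against ci-Ins2 (a circular RNA from the second intron of Ins2), enter no value below. The islets of Wistar rats of 12 weeks were freed with collagenase, dispersed into single cells with trypsin and transfected by lipofection. RNA was taken after 48 h. The rats were male according to the study's methods. A gapmeR is a short single-stranded antisense oligonucleotide with locked bases at its ends and a DNA centre that recruits RNase H to a matching RNA. These libraries are therefore a control for transfection and not untouched islets, and no untransfected library was analysed. The study's reporting form states that, within a biological replicate of its cell experiments, all groups shared an animal or a passage. It does not name these libraries, so a pairing by replicate number is an inference. The spread below is that between the 3 numbered replicates.

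The control oligonucleotide is shown because every value below was measured in cells that carried it. Its sequence, as the study's methods give it, has 15 bases.
control gapmeR: aacacgtctatacgc

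A pancreatic islet is a cluster of hormone-secreting cells. Beta cells make insulin and amylin, alpha cells glucagon, delta cells somatostatin, PP cells pancreatic polypeptide, and rare epsilon cells ghrelin. Beta cells take up and metabolise glucose and release insulin from granules when the resulting ATP closes a potassium channel. Rats and mice, unlike humans, carry a pair of insulin genes, Ins1 and Ins2, of which Ins2 corresponds to the single human gene.

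The deposited abundances came from RSEM, and each library's values summed to 10000000. After division by 10 and summing over the transcripts of each gene name, each library summed to 1000000, and a value on this scale is called a level here. The sources used here do not name the unit. The equal sums are those of TPM multiplied by 10, a unit of relative transcript number that corrects for transcript length, and levels of different genes are set side by side on that reading. Read depth is unknown, so no counting interval is given, and error is the SD over 3 libraries.

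The 4 most abundant of the 28656 gene names stood apart from all others in these libraries, and all 4 encode islet hormones. The 13 listed mitochondrially encoded genes were not matched by name, so their place in this order is not given. Ins1 had a level of 79500 ± 948 parts in 1000000 (SD, n = 3), Ins2 77208 ± 1612, Iapp 25266 ± 1374 and Gcg 24753 ± 2953. Together they held 20.7% ± 0.361 of the total, and the gene next in order, the unnamed locus AABR07015057.1, was at 4170 ± 1127. The labelled cell type and the leading genes thus match, and the abundance curve drops sharply after these 4 genes.

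**Figure D1:**
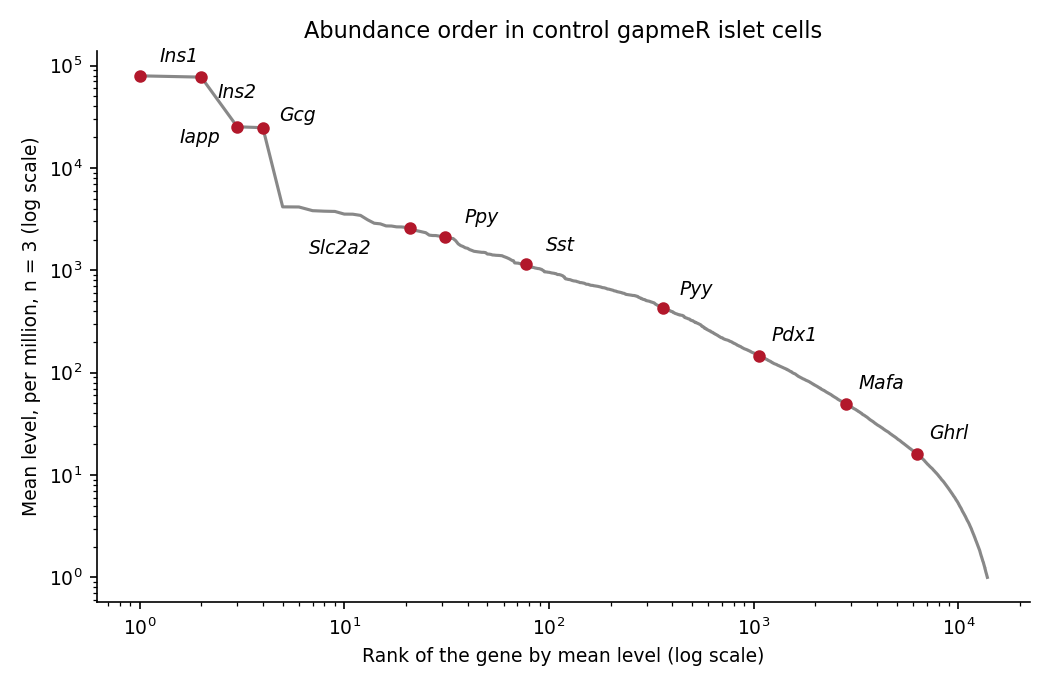
Mean level of each gene over the 3 control libraries (y axis, parts in 1000000, log scale) against its rank (x axis, log scale), for the 13853 genes with a mean of at least 1; red points are named genes. Ins1, Ins2, Iapp and Gcg lie on a step above the rest of the curve, while Ppy (rank 31), Sst (rank 77), Pyy (rank 361) and Ghrl (rank 6279) lie along it.

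The bases just before the start sites of these 4 genes are shown because they are the regulatory sequence of the most abundant transcripts in the libraries. Each line gives 250 bases up to the base before the annotated start, 5′ to 3′ on the gene's own strand, from RefSeq on the GRCr8 build. Capitals mark GCCATCTG, the E element of the rodent insulin promoters. They also mark TAAT, the core of sites for homeodomain factors such as Pdx1. The last motif in capitals is the TATA box, searched as TATAAA. Each was searched on both strands, so that the reverse complements are in capitals too, and TAAT can overlap its own reverse complement.
Ins1, chr1:261185869-261186118, plus strand: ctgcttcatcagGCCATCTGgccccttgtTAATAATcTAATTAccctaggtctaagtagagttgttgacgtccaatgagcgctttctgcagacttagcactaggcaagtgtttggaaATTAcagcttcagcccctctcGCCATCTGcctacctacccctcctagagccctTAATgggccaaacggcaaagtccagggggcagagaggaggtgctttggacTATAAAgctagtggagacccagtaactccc
Ins2, chr1:207273806-207274055, minus strand: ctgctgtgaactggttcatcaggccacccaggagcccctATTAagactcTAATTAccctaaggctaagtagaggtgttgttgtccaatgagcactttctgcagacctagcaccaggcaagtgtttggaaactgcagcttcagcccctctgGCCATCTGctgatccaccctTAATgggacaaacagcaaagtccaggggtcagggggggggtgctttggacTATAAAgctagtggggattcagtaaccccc
Iapp, chr4:176967847-176968096, plus strand: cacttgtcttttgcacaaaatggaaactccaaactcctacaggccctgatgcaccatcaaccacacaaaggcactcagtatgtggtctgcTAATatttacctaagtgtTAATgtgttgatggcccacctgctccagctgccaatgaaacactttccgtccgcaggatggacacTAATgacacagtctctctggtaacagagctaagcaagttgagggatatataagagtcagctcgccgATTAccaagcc
Gcg, chr3:67531534-67531783, minus strand: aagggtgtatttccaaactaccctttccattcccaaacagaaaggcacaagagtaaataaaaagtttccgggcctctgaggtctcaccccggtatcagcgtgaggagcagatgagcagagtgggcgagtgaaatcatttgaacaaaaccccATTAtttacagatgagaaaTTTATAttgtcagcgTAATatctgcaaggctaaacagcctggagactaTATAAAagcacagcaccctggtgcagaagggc

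GCCATCTG occurred 2 times before Ins1 and 1 time before Ins2, and not in the windows of Iapp and Gcg. Of 33469 rat promoter windows of this length, 0.998% held it on either strand, 57.0% held TAAT and 12.9% held TATAAA. The windows of Ins1 and Ins2 were alike in 78.2% of their aligned columns, against 42.3% to 49.3% for the other pairs of these 4 genes. A match of letters is a description of the window and not a mapped binding site.

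The levels of the insulin genes were close to each other and steady. The level of Ins1 was 80576, 79136 and 78787 in control replicates 1, 2 and 3. That of Ins2 was 78914, 75712 and 76996. Ins1 was above Ins2 in each of the 3 libraries, although the ranges of these levels overlapped, and the ratio of Ins2 to Ins1 within a library was 0.971 ± 0.0125 (SD, n = 3). The insulin genes held 15.7% ± 0.246 of the total level and 74.5% ± 0.779 of the summed level of the 8 hormone genes. The 2 genes are near copies in parts of their sequence, and reads that fit both were divided between them by the authors' estimate, so that the ratio is less certain than its SD.

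Amylin and glucagon followed, in an order that differed between libraries. The level of Iapp, the amylin gene, was 23727, 26368 and 25704. That of Gcg, which encodes glucagon, was 26040, 21374 and 26844. Gcg was above Iapp in control replicates 1 and 3 and below it in control replicate 2, so these neighbours did not differ beyond their spread. The summed level of Ins1 and Ins2 was 6.39 ± 0.757 times that of Gcg. In bulk RNA, fewer cells of a type and less RNA per cell cannot be told apart, and such ratios are not ratios of cells.

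The minor hormones spread more. Ppy, pancreatic polypeptide, was at 2784, 1714 and 1885. Pyy, peptide YY, which islet cells other than beta cells also make, was at 575, 376 and 337. Both were highest in control replicate 1, by 1.62-fold and 1.71-fold over the lowest library. The level of Sst, somatostatin, was 1139, 1280 and 1002, and Ghrl, ghrelin, was at 24.0, 17.4 and 6.59, lowest in control replicate 3. From Ppy to Sst, from Sst to Pyy and from Pyy to Ghrl the ranges did not overlap, so the order of the minor hormones held in each library.

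**Figure D2:**
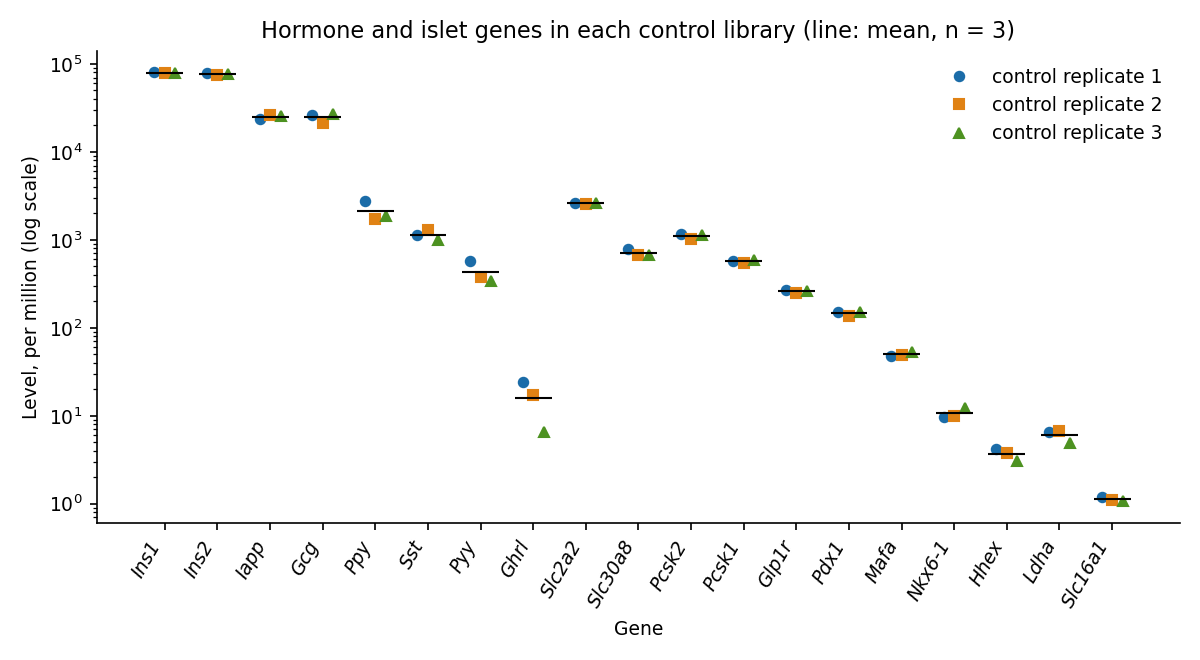
Level of 19 hormone and islet genes in each of the 3 control libraries (y axis, parts in 1000000, log scale; points are libraries, lines are means). The points of most genes lie close together, and Ghrl spreads most, from 6.59 to 24.0.

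The genes that act on the hormone precursors were among the most abundant. Of 12 genes for prohormone processing and granins, all 12 had a mean level of at least 1, and 9 were at 100 or more. Cpe, the carboxypeptidase that trims basic residues from the cut precursors, was at 3441 ± 233 (SD, n = 3). Pam, which amidates peptide ends as in amylin and pancreatic polypeptide, was at 2886 ± 192. The convertase gene Pcsk2 was at 1108 ± 67.6 and Pcsk1 at 569 ± 18.3, a ratio of 1.95 ± 0.082. Scg2 and Scg5, a granin and the chaperone of the Pcsk2 product, were at 2051 ± 173 and 1174 ± 73.0.

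Chga, chromogranin A, varied most in this group relative to its mean. Its level was 1152 and 1233 in control replicates 1 and 2 and 2079 in control replicate 3. Chgb, the related granin, was at 162, 155 and 172, with no such step. Vgf, at 6.97, 11.2 and 10.8, and Pcsk1n, at 61.5, 72.0 and 86.8, varied most after Chga. Without Chga, the summed level of the group was 11975, 11382 and 11838.

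Genes of the granule membrane and of the potassium channel had a sum that varied little. All 16 of 17 listed genes that were matched by name had a mean level of at least 1, and their summed level was 3265 ± 75.3 (SD, n = 3), a CV of 2.31%. The members' median CV was 6.98%, beside 7.86% over all genes, but the CV depended on level. Of the 16 members, 13 had a mean of at least 10 and 9 of at least 100. The median CV of all genes was 6.83% for means of 10 to 100 and 5.24% in the next bin of level. The members' median therefore does not show them to be steadier than genes of like level. The widest CV was that of Slc18a1, a vesicular monoamine transporter, at 8.13, 4.74 and 6.71. Slc30a8, the zinc transporter of the insulin granule, was at 714 ± 68.0, and Ptprn, a granule membrane protein and autoantigen in human diabetes, at 639 ± 37.1. Abcc8 and Kcnj11 encode the subunits of the ATP-sensitive potassium channel, and their levels were 197 ± 13.4 and 85.1 ± 4.41. Syt7, a calcium sensor of exocytosis, was at 606, 614 and 618. Vamp8 (214 ± 6.07) was above Vamp2 (17.6 ± 0.912), both vesicle fusion proteins, in each library.

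Glucose-handling genes held both very abundant and nearly silent members. Slc2a2, the low-affinity glucose transporter GLUT2, was at 2655, 2524 and 2625, and was 92.6 ± 8.51 times Slc2a1, which encodes the transporter common to most cells. Hk1, a high-affinity hexokinase, was at 1.75 ± 0.513. Ldha, lactate dehydrogenase A, was at 6.01 ± 0.967, and Slc16a1, the lactate and pyruvate carrier MCT1, at 1.12 ± 0.0742. Both are on a list of 15 genes that mature beta cells of mouse and rat keep low. On that list 11 genes had a mean of at least 1 and 3 of at least 10, namely Cat (54.4 ± 1.27), Igfbp4 (50.02 ± 6.08) and Lmo4 (25.5 ± 4.49). Among the further enzymes of glycolysis, Aldoa was at 1524 ± 46.9 and Pkm at 1148 ± 125, while Gpi was at 23.1 ± 0.775 and Pfkm, the highest of the 3 phosphofructokinase genes listed, at 55.02 ± 3.62.

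Transcription factors of the beta cell ranged widely in level. Of 19 listed factors 18 were matched by name, and 15 had a mean level of at least 1. Pax6, needed for all islet endocrine cells, was the highest at 366 ± 31.5 (SD, n = 3), followed by St18 at 300 ± 9.83 and Neurod1 at 207 ± 36.6. The level of Pdx1, an activator of the insulin genes, was 151, 137 and 152, and Mafa, a marker of mature beta cells, was at 47.3, 48.8 and 53.6. Nkx6-1, a factor of beta-cell identity, was at 10.6 ± 1.43. Neurog3, Pax4 and Onecut1, factors of endocrine progenitors, were at 0.186 ± 0.131, 0.0477 ± 0.0413 and 0.00467 ± 0.00404, each below 1 in each library.

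Receptors through which hormones, nutrients and nerves act on islet cells were present at moderate levels. Of 21 genes matched by name, 20 had a mean of at least 1 and 5 were at 100 or more. Ghr, the growth hormone receptor, was at 364 ± 27.0, Glp1r, the receptor of the incretin GLP-1, at 259 ± 10.6, and Gcgr, the glucagon receptor, at 174 ± 11.3. Prlr, the prolactin receptor, was at 140 ± 13.1 and Gipr, the receptor of the other incretin, at 121 ± 8.47. Glp1r was 2.15 ± 0.108 times Gipr. The somatostatin receptor genes Sstr5, Sstr2, Sstr3 and Sstr1 were at 8.98 ± 2.15, 7.15 ± 0.861, 2.40 ± 0.200 and 0.109 ± 0.00208.

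The genes that mark alpha cells ranged from among the most abundant of all to levels near 1. Of 13 alpha-cell genes, 12 had a mean of at least 1. Slc38a5, an amino acid transporter of alpha cells, was at 3062, 2312 and 2603, and Gc, the vitamin D-binding protein, at 750, 522 and 693. Irx2, an alpha-cell factor, was low at 4.84 ± 0.703, and Ttr, transthyretin, was at 2.95 ± 0.851. Control replicate 2 was lowest for 11 of the 12, and 48.3% of all 13853 genes with a mean of at least 1 were lowest in that library.

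That share and its counterparts are the background against which such counts are read. Control replicate 1 was highest for 48.7% of the 13853 genes, control replicate 2 for 24.5% and control replicate 3 for 26.8%. Control replicate 1 was lowest for 19.4% and control replicate 3 for 32.3%. These shares depend on the scale. After division by median-of-ratios size factors (1.03, 0.976 and 0.997), the libraries were highest for 33.2%, 35.3% and 31.4% and lowest for 31.5%, 36.9% and 31.5% of the genes, and 9 of the 12 alpha-cell genes were lowest in control replicate 2.

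The delta-cell and PP-cell lists were short and carried by their hormones. Hhex, the factor that delta cells need for somatostatin expression in mouse, was at 3.69 ± 0.600 (SD, n = 3), and Rbp4, retinol-binding protein, at 37.9 ± 0.695. Ghsr and Crhr1, receptors of delta and beta cells, were at 0.117 ± 0.0364 and 0.029 ± 0.0285. Meis2 and Etv1, factors linked to PP cells, were at 20.7 ± 3.90 and 16.3 ± 1.17. Ucn3, urocortin 3, a peptide of mature rodent beta cells that acts on delta cells, was at 142, 193 and 170.

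Genes shared by islets and nerves ranged widely, with 12 of 24 at a mean of 100 or more and 5 under 1. Resp18 and Gnas, a granule protein and the stimulatory G protein subunit, were at 2207 ± 54.5 and 2189 ± 109. Npy, neuropeptide Y, was at 172, 449 and 311, and Gad1, which makes GABA, at 426, 721 and 599. Both were lowest in control replicate 1 and highest in control replicate 2, with libraries well apart, while Gad2, the other GABA-synthesizing enzyme, was at 118, 124 and 117. Th, Tph1 and Tph2, which make catecholamines and serotonin, were all at a mean below 1.

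Folding genes of the endoplasmic reticulum were all detected. All 24 had a mean of at least 1, and 13 were at 100 or more, with a summed level of 7459 ± 353 (SD, n = 3). Ero1b, the oxidase that drives disulfide formation and is abundant in beta cells, was at 2325, 1980 and 2012. Hspa5, the chaperone BiP, was at 1052 ± 65.1, Pdia3 at 782 ± 26.2 and Xbp1 at 191 ± 2.10. Ddit3, the stress factor CHOP, was at 66.0 ± 5.5. Of 15 immediate early genes, 12 had a mean under 10, among them Fos at 1.12 ± 0.274 and Egr1 at 0.711 ± 0.0693. The other 3 were Junb (42.8 ± 2.59), Ier3 (36.2 ± 2.32) and Jund (23.2 ± 2.65). The constitutive heat shock gene Hspa8 was at 1069 ± 36.2.

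Proliferation genes were detected at low level, apart from the cyclins of the G1 phase. Ccnd2, the main D cyclin of rodent beta cells, was at 145 ± 11.7 and Ccnd1 at 86.0, 152 and 120. Mki67, a marker of cycling cells, was at 3.71, 4.62 and 3.56, and Top2a at 5.44, 9.43 and 6.10. Of 21 proliferation genes, 17 were highest in control replicate 2, where 24.5% of all genes were highest. With size factors it was 18 of 21, where 35.3% of all genes were highest. Control replicate 2 also had the highest collagen gene levels given below, and the part of stromal cells in the proliferation genes was not tested.

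Genes of other cell types of the pancreas were present, at levels far under those of the endocrine genes but for stromal and keratin genes. The 20 fibroblast and stellate-cell genes matched by name summed to 1904, 2269 and 1590. Col1a1, a chain of collagen I, was at 109, 185 and 88.3, Col3a1 at 99.7, 177 and 69.9, and Tagln, a contractile cell marker, at 292, 461 and 251. These were each highest in control replicate 2 and lowest in control replicate 3, but the list was not uniform. Of its 6 collagen genes, 4 were highest in control replicate 2, where 24.5% of all genes were. The other 2 (Col6a1 and Col6a2) were highest in control replicate 1, where 48.7% of all genes were. Timp1, an inhibitor of matrix proteases and the most abundant member, was at 414, 249 and 416, and Fn1, fibronectin, at 307, 278 and 313, both lowest in control replicate 2. Over the list, 16 of the 19 genes with a mean of at least 1 were lowest in control replicate 3, where 32.3% of all genes were. Pdgfra, a defining marker of fibroblasts, was at 0.166 ± 0.0375.

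The ductal list was split between its keratins and its defining genes. Krt7, Krt8 and Krt18 were at 340 ± 34.0, 281 ± 5.20 and 168 ± 4.45 (SD, n = 3). Krt19, the usual keratin of duct cells, was at 2.14 ± 0.199, and Sox9 and Cftr, the factor and the chloride channel that define ducts, were at 0.326 ± 0.115 and 0.04 ± 0.0324. Krt8 and Krt18, which rodent islet endocrine cells also express, thus stood well above the genes restricted to ducts.

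Digestive enzyme genes of acinar cells were low and uneven. The 23 acinar genes matched by name summed to 89.5, 39.7 and 36.3. The member with the highest mean, Bhlha15, encodes a transcription factor and not an enzyme. Without Bhlha15 the list summed to 62.6, 20.3 and 16.3. Ctrb1, a chymotrypsinogen, was at 27.2, 3.94 and 2.64, and Cpa1, a carboxypeptidase, at 4.64, 0.365 and 0.443. All 7 genes with a mean of at least 1 were highest in control replicate 1, where 48.7% of all genes were. Ptf1a, which defines acinar cells, was at 0.026 in that library and at 0 in the others. The level of Ppy was also highest in control replicate 1, and whether the 2 are linked was not tested.

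Endothelial and immune genes had opposite library orders. The 13 endothelial genes matched by name summed to 79.9, 65.9 and 36.3. All 9 with a mean of at least 1 were lowest in control replicate 3, where 32.3% of all genes were. Kdr, the main receptor of vascular endothelial growth factor, was at 14.3, 9.96 and 4.33. The 19 macrophage and immune genes matched by name summed to 60.04, 82.1 and 102, and 11 of the 12 with a mean of at least 1 were highest in control replicate 3, where 26.8% of all genes were. C1qa, a complement gene of tissue macrophages, was at 12.6, 18.3 and 23.2, while Cd3e and Cd8a of T cells were under 0.05 and Ms4a1 of B cells was listed at 0 in all 3. The Schwann-cell genes Sox10 and S100b had means of 0.11 ± 0.0808 and 0.207 ± 0.0968. Hbb, a globin gene of red blood cells, was at 2.60, 0.094 and 0.445.

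**Figure D3:**
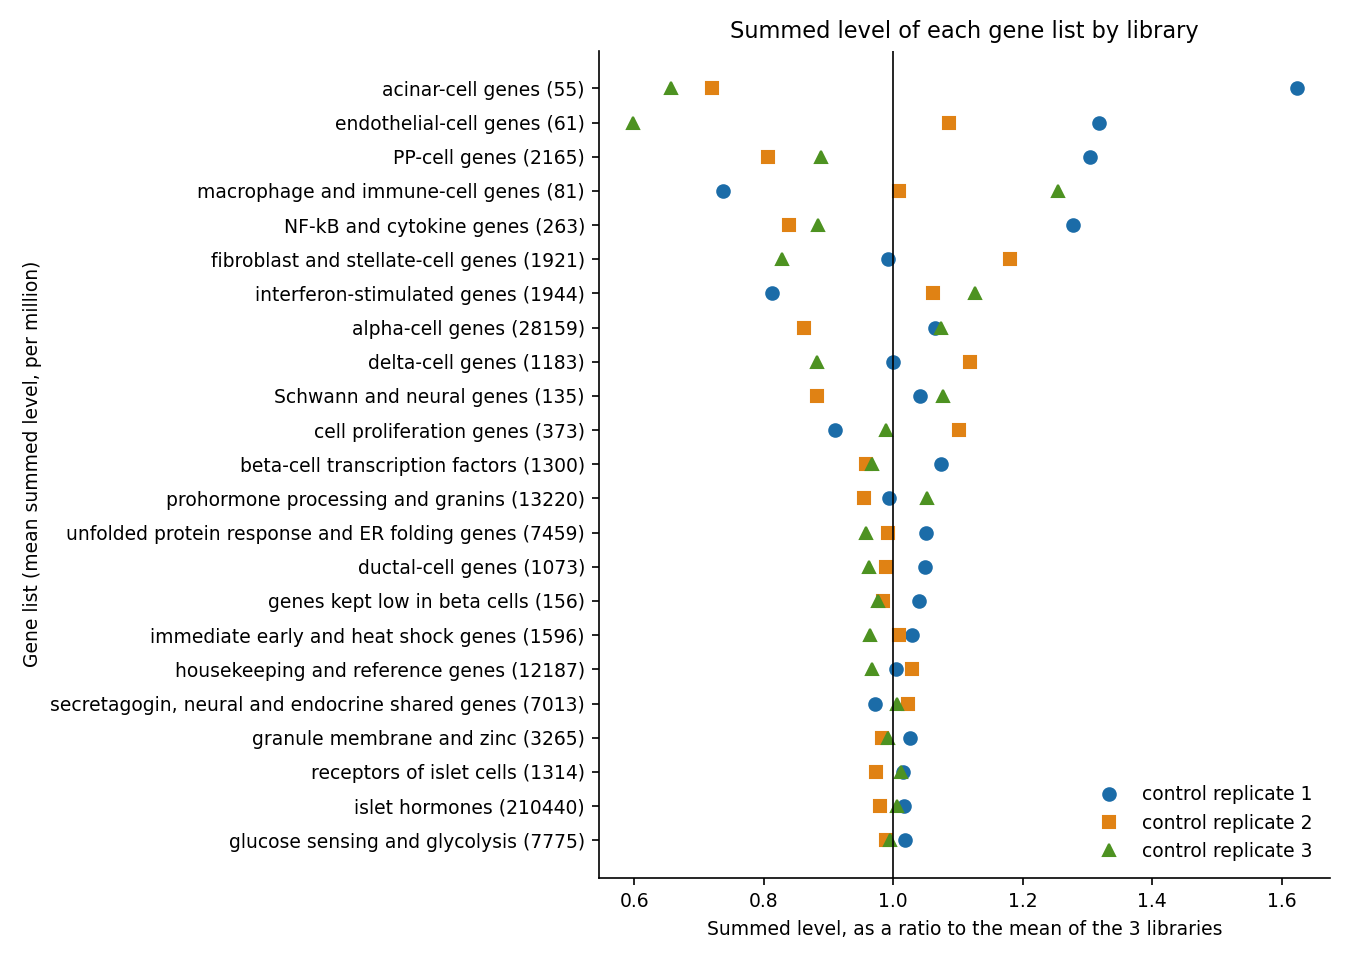
Summed level of each of 23 gene lists in each control library as a ratio to the mean of the 3 (x axis), lists ordered by their CV, with the mean summed level in parentheses. Hormone, receptor, granule and glycolysis lists stay near 1, while acinar, endothelial, PP-cell, macrophage and NF-kB lists spread most among the libraries.

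Interferon-stimulated genes set control replicate 1 apart. Their summed level was 1578, 2062 and 2190, and of its 20 genes the 19 with a mean of at least 1 were all lowest in control replicate 1, where 19.4% of all genes were lowest. With size factors the count was again 19, beside 31.5% of all genes. Irf7, a regulator of type I interferon, was at 57.2, 120 and 117, and Isg15, a ubiquitin-like modifier, at 45.8, 105 and 93.8. Rsad2, the antiviral protein viperin, was at 7.59, 28.9 and 28.4. For Irf7, Isg15 and Rsad2, control replicate 1 lay well below both other libraries. Other members differed less, such as Ifit2 at 5.09, 6.26 and 5.58, and Bst2, at 38.1, 50.9 and 41.4, was nearer to control replicate 1 in control replicate 3. Without Ifi27, the most abundant member, the list summed to 523, 893 and 870.

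The class I genes of the rat major histocompatibility complex, named RT1, were also lowest in control replicate 1 and differed between the other libraries as well. RT1-A1, which presents peptides to T cells, was at 1740, 2885 and 3501, and RT1-CE7 at 449, 752 and 989. All 13 RT1 genes with a mean of at least 20 were lowest in control replicate 1 and highest in control replicate 3, an order that 6.98% of all 5457 genes at that level had, and their summed level was 7035, 9639 and 11782. B2m, the partner chain of class I proteins, was at 1205, 1132 and 1387, lowest in control replicate 2. The RT1 genes are near copies of one another and vary between animals, so that reads may have been divided among them unevenly, and single RT1 values are uncertain. The macrophage genes had this library order too, and their part in the RT1 levels was not tested.

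Structural RNAs had the same library order. Rn7sl1, the RNA of the signal recognition particle, was at 133, 257 and 405, and Rn5-8s, a ribosomal RNA, at 35.7, 114 and 164. The names RF00017 and RF00002, which stand for RNA families, were at 688, 1354 and 2135 and at 352, 1228 and 1708. The library kit selects polyadenylated RNA, which these RNAs generally are not. Of 34 names without a gene symbol and with a mean of at least 1000, 10 had this order with a CV above 20%, beside 4 of 59 symbols (6.78%) and 15.1% of all 93 names at that level. The 10 together held 1.87%, 2.88% and 3.41% of the total. They are not all structural RNAs by name. RF00017 and RF00002 are among them, and so is RGD1563861, whose rise was mainly in control replicate 3. The others are AABR loci whose RNA type is not given, such as AABR07015057.1 at 2922, 4474 and 5114.

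Across the transcriptome the libraries were alike. Of 28656 gene names, 13377 had a level of at least 1 in each library, and 10609 of these carry a gene symbol. A further 8272 names were at 0 in all 3. Pairs of libraries correlated at 0.989 to 0.990 (Pearson's r of log2 of the level plus 1, a description over 13853 genes, which are not independent replicates). The median CV was 7.86%, and it fell from 10.9% for the 5903 genes with a mean of 1 to 10 to 5.24% for the 1453 genes with a mean of 100 to 1000. For the 93 genes at 1000 or more it was 6.19%. A CV above 25% was found for 1126 genes.

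**Figure D4:**
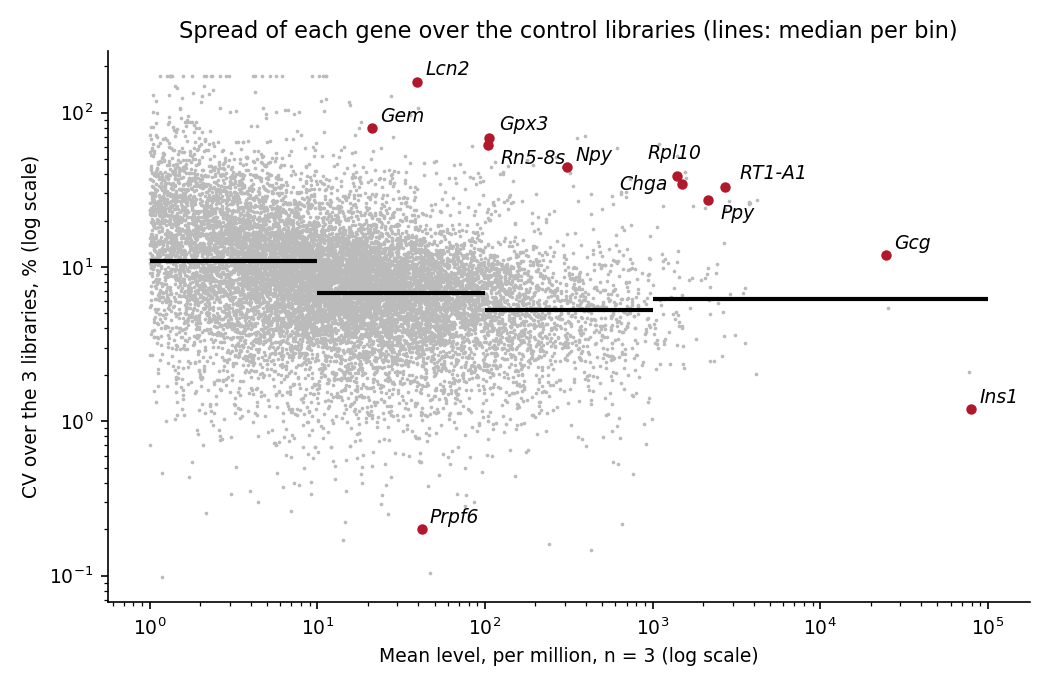
CV over the 3 control libraries (y axis, %, log scale) against mean level (x axis, parts in 1000000, log scale) for 13853 genes; grey points are genes, black lines the median CV per bin of level, red points named genes. Ins1 lies at 1.19% and Prpf6 at 0.201%, and Lcn2 lies at 159%.

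The 10 genes of lowest CV held no hormone gene. Of the symbol-bearing genes whose mean reached 20, Prpf6, a splicing factor, had the lowest CV, at 42.0, 41.9 and 41.8. Phf5a, another splicing protein (67.6, 67.8 and 68.0), and Ndufc1, a subunit of respiratory complex I (76.4, 76.4 and 76.9), were close behind. The other 7 of the 10 with the lowest CV were Clstn1, Wdr13, Hpgd, Slc35a4, Atic, Trmt61a and Adam10, all at a CV under 0.5%. With 3 libraries, the order within this group carries little weight. The 14 reference genes matched by name summed to 12187 ± 373. Among them, Polr2a was at 31.9 ± 0.464 (SD, n = 3), Ywhaz at 394 ± 7.43, Actb at 1409 ± 180 and B2m at 1241 ± 132.

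Among symbol-bearing genes with a mean of at least 20, the most variable was Lcn2, lipocalin 2, a secreted iron-siderophore binding protein induced by inflammation. Its level was 112 in control replicate 1 and 5.23 and 1.404 in the others. The NF-kB and cytokine list holds Lcn2, and without it the list summed to 224, 215 and 231. Its highest member was Sod2, the mitochondrial superoxide dismutase, at 90.1, 81.7 and 93.7. Mgp, an inhibitor of calcification, was at 278, 133 and 122, and Gem, a small GTPase, at 40.5, 13.8 and 9.35, both also highest in control replicate 1. Gpx3, the secreted glutathione peroxidase, was at 58.1, 69.6 and 188, highest in control replicate 3. Spp1, osteopontin, was at 28.6, 35.3 and 7.97 and Rgs5, a pericyte gene, at 75.2, 51.3 and 25.6, both lowest in control replicate 3. Rsad2, Rn5-8s and Rn7sl1 complete the 10 most variable at that level with Mir6314 (26.6, 9.26 and 48.5), a microRNA gene.

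A run of neighbouring genes was higher in 1 library. In RefSeq order on chromosome X, 11 genes of a run from Emd to Ikbkg were all higher in control replicate 3, at 1.79 to 2.03 times the mean of the other libraries (median 1.86). Rpl10, a ribosomal protein gene, was at 1044, 1134 and 2026. Fam3a, a secreted cytokine-like protein, was at 97.0, 98.6 and 190. Control replicates 1 and 2 were close to each other for each of the 11, with a ratio of 0.913 to 1.16. The other members are Emd, Dnase1l1, Atp6ap1, Fam50a, Plxna3, Lage3, Ubl4a, Slc10a3 and Ikbkg, with levels from 5.88 to 179.

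The levels changed at both ends of the run. Flna, the gene before Emd, was at 27.6, 36.0 and 40.1, and Dkc1, the gene after Ikbkg, at 49.2, 47.5 and 42.0. For Flna, control replicate 3 was at 1.26 times the mean of the others, and for Dkc1 at 0.869 times. The end after Ikbkg rests on Dkc1 alone. Over the 15 genes before the run, control replicate 3 was at 0.706 to 1.36 times the others, and over the 245 other genes placed on the chromosome the median ratio was 1.00. In windows of 10 neighbouring genes, over 7822 genes placed by symbol and with a mean of at least 5, the median log2 ratio of 1 library to the others passed 0.4 in either direction only in windows that overlap this run. The run was noticed after the values were seen, and the scan was made for it. Chga and the name RGD1563861, at 1202, 1296 and 2279, had the same step in control replicate 3, but the 10 genes around Chga had ratios of 0.728 to 1.05.

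**Figure D5:**
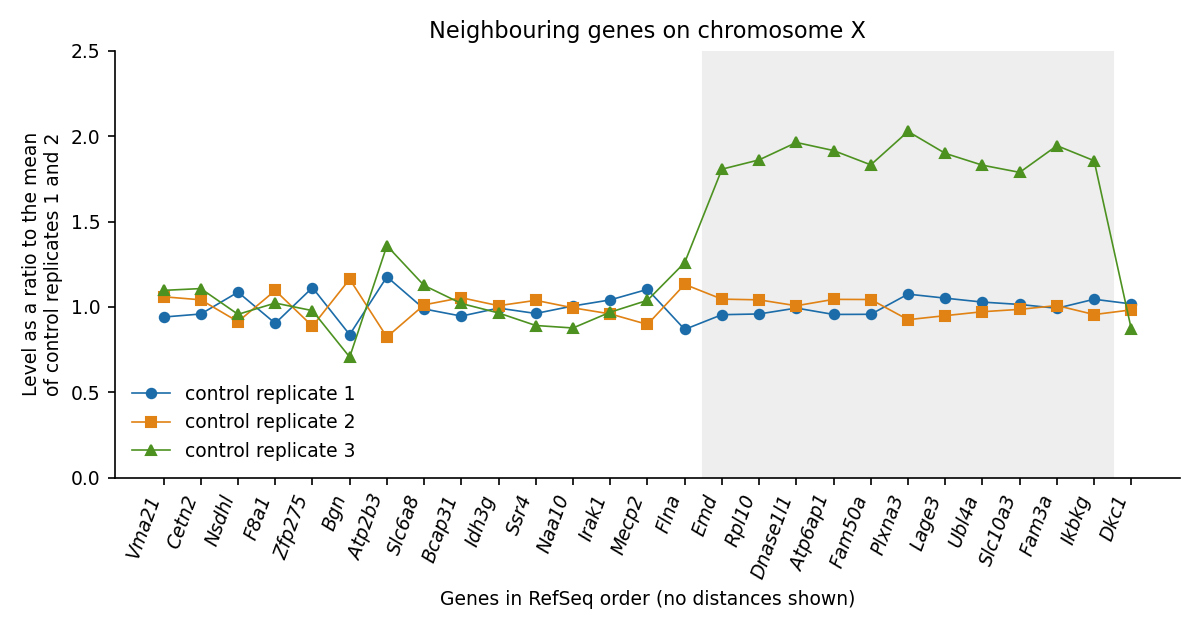
Level of 27 genes in RefSeq order on chromosome X as a ratio to the mean of control replicates 1 and 2 (y axis; x axis, gene order without distances; points are libraries, shading marks the run from Emd to Ikbkg). In the shaded run control replicate 3 lies at 1.79 to 2.03, and outside it at 0.706 to 1.36.

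RSEM also divides each gene's level among its annotated transcripts. Of the 13853 genes, 9823 have 1 annotated transcript and 4030 have several. Among the latter, the transcript with the highest mean held a median of 55.1% of the gene's level, with quartiles of 50.5% and 73.4%. Only 93 of the 4030 genes had 90% or more in 1 transcript, and 866 had under 50% in any. Of the 2825 genes with 2 annotated transcripts, 1540 (54.5%) had a share under 60%, a nearly even division. Reads that fit several transcripts of a gene were divided by the authors' estimate. The shares here and below are therefore less certain than their spread over libraries.

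Islet genes of this kind included abundant ones. Slc2a2 was divided into 53.5% and 46.5% between its 2 transcripts, at 1391 ± 32.7 and 1210 ± 40.4 (SD, n = 3). Slc30a8 was divided into 53.4% and 46.6%, and Abcc8 into 51.4% and 48.6%. Pax6 had 3 transcripts at 39.5%, 31.96% and 28.5%. Gcgr had 2 nearly equal transcripts, at 79.3 ± 5.46 and 77.3 ± 5.63, beside a minor one at 17.0 ± 0.296, and Syt7 was spread over 8, the highest at 21.4%. Ins1, Ins2, Iapp, Gcg, Ppy, Sst, Pyy and Ghrl each have 1 transcript in the table, so no such division touches the hormones. Among listed genes with several transcripts and a mean of at least 20, 48 of 68 (70.6%) had under 60% in their main transcript, beside 1485 of 2100 (70.7%) among all such genes.

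The leading transcript was mostly the same in each library. It differed between libraries for 360 of the 4030 genes (8.93%), and in these the main transcript held a median of 50.1%, against 56.2% in the others. The leader changes most easily where the top transcripts are nearly equal, so this contrast follows largely from the grouping itself. Atp1b1, a subunit of the sodium pump, was the most abundant of the 360 genes. Its first transcript was at 370, 397 and 358, its second at 358, 386 and 366, so the leader changed in control replicate 3 by less than the spread between libraries. For Spint2, a protease inhibitor, the transcripts were at 319, 309 and 317 and at 304, 318 and 303. In RT1-CE7 the first transcript was at 234, 319 and 395 and the second at 200, 316 and 419, so the second led in control replicate 3. A minor transcript of RT1-CE7, which led in no library, was at 14.6, 117 and 175. The remaining 7 of the 10 most abundant such genes were LOC103690108, RT1-CE1, Atp5pb, Ndrg1, Tpm1, Krt7 and Ccng1.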

How the data were processed

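Reads were single-end, 125 cycles, from TruSeq Stranded mRNA libraries. Per the submitters' processing notes and the study's methods, the authors aligned the reads by STAR 2.5.3a to the rn6 transcriptome of Ensembl and estimated abundances by RSEM 1.3.0. The deposited signal values are relative transcript abundances per library, with no unit named and no counts, so that no count model and no test was run. The authors' mean of the controls equals the mean of the 3 columns and was not used. Values were divided by 10 and the 40771 transcripts were summed to 28656 names. The mean, SD and CV over 3 libraries describe spread. Genes were read from 25 lists of 404 names, of which 370 were matched; the others, including the 13 mitochondrially encoded genes, were not analysed here. The named genes were the 30 with the highest mean, all hormones, the 6 highest members and defining genes of each list, the 10 highest and 10 lowest CVs among symbols with a mean of at least 20, and the transcripts described above; some genes are not reported here. Members and lists were chosen with earlier results of these data known. RefSeq (GRCr8) gave gene order and promoters only. Python 3.11.15, pandas 2.3.3, numpy, matplotlib and Biopython were used, and the steps were tested on simulated data.

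The alternatives were other thresholds and pseudocounts, size factors, a total without the 10 most abundant genes, the main transcript in place of the sum, gene symbols alone and each library left out.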

Additional observations from a re-analysis of the deposited data

How the results depend on the processing

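The ratio of Ins2 to Ins1 was 0.967 to 0.978 with 1 library left out and did not change with the scale. Without control replicate 2 the mean of Gcg lies above that of Iapp. The number of genes at 1 or more in each library was 9756 at a threshold of 5 and 16378 at 0.1. With the main transcript in place of the sum, the share of the 50, 100 and 1000 most abundant genes was 29.9%, 34.5% and 62.1% (31.6%, 37.5% and 69.7% with sums). With gene symbols alone, the share of the 10, 50, 100 and 1000 most abundant was 22.5%, 29.3%, 33.4% and 51.9%. Without the 10 most abundant genes in the total, the hormone genes summed to 273300, by construction, and each of 24 lists was multiplied by 1.297 to 1.2996. The median CV was 9.32% at a minimum mean of 0.1 and 6.91% at 5, and 5.75% to 7.49% with 1 library left out, 5.75% without control replicate 2 and 6.29% without control replicate 1. The number of genes whose leading transcript differs was 546 at a minimum mean of 0.1 and 221 to 260 with 1 library left out, lowest without control replicate 2, where fewer libraries are compared.

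The order of the libraries by summed level stayed the same with size factors for 17 of 24 lists. The counts of interferon, endothelial, acinar and RT1 genes and of the run on chromosome X at 1 extreme library were equal under size factors, the smaller total and the main transcript, which was checked after the data were seen. No paired analysis was possible because 1 group is described and no comparison was made. Depth is unknown, so low levels carry no counting error, and n = 3 limits each SD.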

Other observations

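Some abundant genes outside the lists were chosen after their values were seen. Msln, mesothelin, a surface protein known from mesothelial cells, had levels of 1697, 2202 and 1340 and ranked 37 of all genes, and its library order is that of Col1a1 and Tagln. Il1r1, the interleukin 1 receptor, was at 1605, 1409 and 1482 and ranked 47. Trh, thyrotropin-releasing hormone, which is made in the fetal and neonatal rat islet, was at 876, 562 and 511, highest in control replicate 1 as Ppy and Pyy were. Acly, which makes cytosolic acetyl-CoA, was at 1398 ± 150 (SD, n = 3), and Atp2a3, a calcium pump of the endoplasmic reticulum, at 1388 ± 70.6.

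Further genes set control replicate 1 below the others. P2rx2, an ATP-gated channel, was at 22.3, 62.1 and 64.5. Arg1, arginase, was at 55.4, 113 and 114. Ifi27l2b, of the interferon-inducible Ifi27 family, was at 911, 2198 and 1587. LOC103690108, at 209, 730 and 897, has the library order of the RT1 genes. In control replicate 2, Ctgf (72.6, 135 and 74.0), Thbs1 (74.8, 124 and 67.6) and Lgals1 (66.8, 121 and 65.3) were highest, as were 4 of the 6 listed collagen genes. Of all genes, 24.5% were highest in that library.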
